A study of Mus musculus with 12 samples.

Results

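Macrophage marker genes and F13a1 were followed in mouse embryonic fibroblasts (MEFs), the connective tissue cells grown from mouse embryos, after overexpression of cardiac transcription factors. The group comprised Csf1r, Tyrobp, Fcer1g, Cd68, Laptm5, Ctss, Lyz1, Lyz2, C1qa and F13a1. Its members were selected on results of these same arrays and on what the genes are known for, so the values below are a description of the members and carry no test. Every probe set that the platform annotation maps to only 1 of these symbols was taken, which gave 16 probe sets of 10 genes among 22626 probe sets that are no controls. Csf1r, Laptm5 and Lyz1 had 3 probe sets each and the other 7 genes had 1 each. Of the 16 probe sets, 9 had a mean log2 signal of at least 5 over all arrays, and no probe set of Tyrobp, Ctss, Lyz1 or C1qa did.

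The series held 12 arrays in 4 groups of 3 biological replicates. All MEFs carried a lentivirus for M2rtTA, the protein that switches on the transgenes when doxycycline (Dox) is present, and all were sampled on day 7 of induction in medium with extra serum, valproic acid and Dox. The negative control received M2rtTA alone, TF group 1 also received GATA4, TBX5 and MEF2C, TF group 2 received these together with Mesp1 and SMARCD3, and TF group 3 received all of the former plus MYOCD and SRF. RNA came from the whole cell population of each culture, and the negative control received no factor virus, so the load of virus and the factors themselves cannot be told apart. Signals were read from Affymetrix Mouse 430A 2.0 arrays, on which a probe set is a group of short probes against the 3′ end of a transcript. A signal below 32, which is 5 on the log2 scale, is treated here as a floor below which replicates differ widely.

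Macrophages are phagocytes of the blood lineage that engulf debris, kill microbes and present antigen. Their survival depends on Csf1r, the receptor for the growth factors Csf1 and Il34, and they signal through the adaptors Tyrobp and Fcer1g, digest material with lysosomal enzymes and make lysozyme and complement C1q. F13a1 encodes the A subunit of clotting factor XIII, a transglutaminase that cross-links fibrin, which is known from megakaryocytes, platelets and macrophages.

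Whether these cultures held macrophage RNA was first read from defining markers outside the selected group. Ptprc (CD45), carried by nearly all blood cells, read 24.8, 33.4 and 41.8 in the negative control, 32.8, 35.5 and 24.8 in TF group 1, 34.2, 17.7 and 27.9 in TF group 2, with 38.6, 30.5 and 35 in TF group 3. It therefore lay around the floor on every array. Spi1, the gene of the myeloid factor PU.1, ranged from 15 to 37 over the 12 arrays, Itgam (CD11b) from 15.3 to 41.7, the mannose receptor Mrc1 from 9.9 to 33.2, and C1qc from 1.1 to 14.8. Adgre1 (F4/80) ranged from 36.9 to 70.4 and overlapped between all groups. None of these defining genes passed the test in any TF group against the negative control. A wider list of 41 measured macrophage and monocyte genes was not all at the floor. In the negative control and TF groups 1, 2 and 3, 17, 14, 18 and 16 of them were above 32 on all 3 arrays. In the same order, 10, 9, 9 and 10 were below 32 on all 3 arrays. All 19 measured fibroblast genes were above 32 on every array of every group, but their levels were not constant. In TF group 1, 2 of them rose and 2 fell against the negative control. In TF group 2, 1 rose and 7 fell, and in TF group 3, 0 rose and 8 fell. Among all probe sets, 13.6%, 13.7% and 13.6% were higher and 9.06%, 9.98% and 9.36% lower. These shares are the background for each count of list genes called against the negative control below. The median log2 change of the fibroblast genes was 0.06, -0.26 and -0.56, beside 0.07, 0.06 and 0.05 over all genes. Fewer cells of a type and less RNA per cell cannot be told apart in such bulk samples.

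F13a1 was the one member that changed from a signal at the floor to a bright one. Its probe set 1448929_at read 15.4, 14.9 and 15.3 in the negative control and 29.5, 26.5 and 30 in TF group 1. It read 3354.2, 3734.5 and 3374.4 in TF group 2, against 1619.3, 1219 and 1540.1 in TF group 3. The 4 groups did not overlap, with the order TF group 2, TF group 3, TF group 1 and negative control, and the lower pair lay entirely below the floor. On the log2 scale the means were 11.77 in TF group 2, 10.5 in TF group 3, 4.84 in TF group 1 and 3.93 in the negative control.

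Measured from the floor of 32, the rise of F13a1 over the negative control was at least 109-fold for TF group 2 and at least 45.3-fold for TF group 3. The fitted log2 changes were 7.84 and 6.57, each with an SE of 0.11. In TF group 1 the log2 change was 0.91 with the same SE, and no fold is given because both groups lay below 32. TF group 3 was 2.4-fold lower than TF group 2, a log2 change of -1.27. Scaling the arrays to their spiked poly-A controls left the change at 7.03 in TF group 2 and turned that of TF group 1 to -0.05. Those spikes were 0.88 higher in log2 units, and the 18S ribosomal probe sets 1.19 higher, in the TF groups than in the negative control, and their part in the results was not tested.

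**Figure D1:**
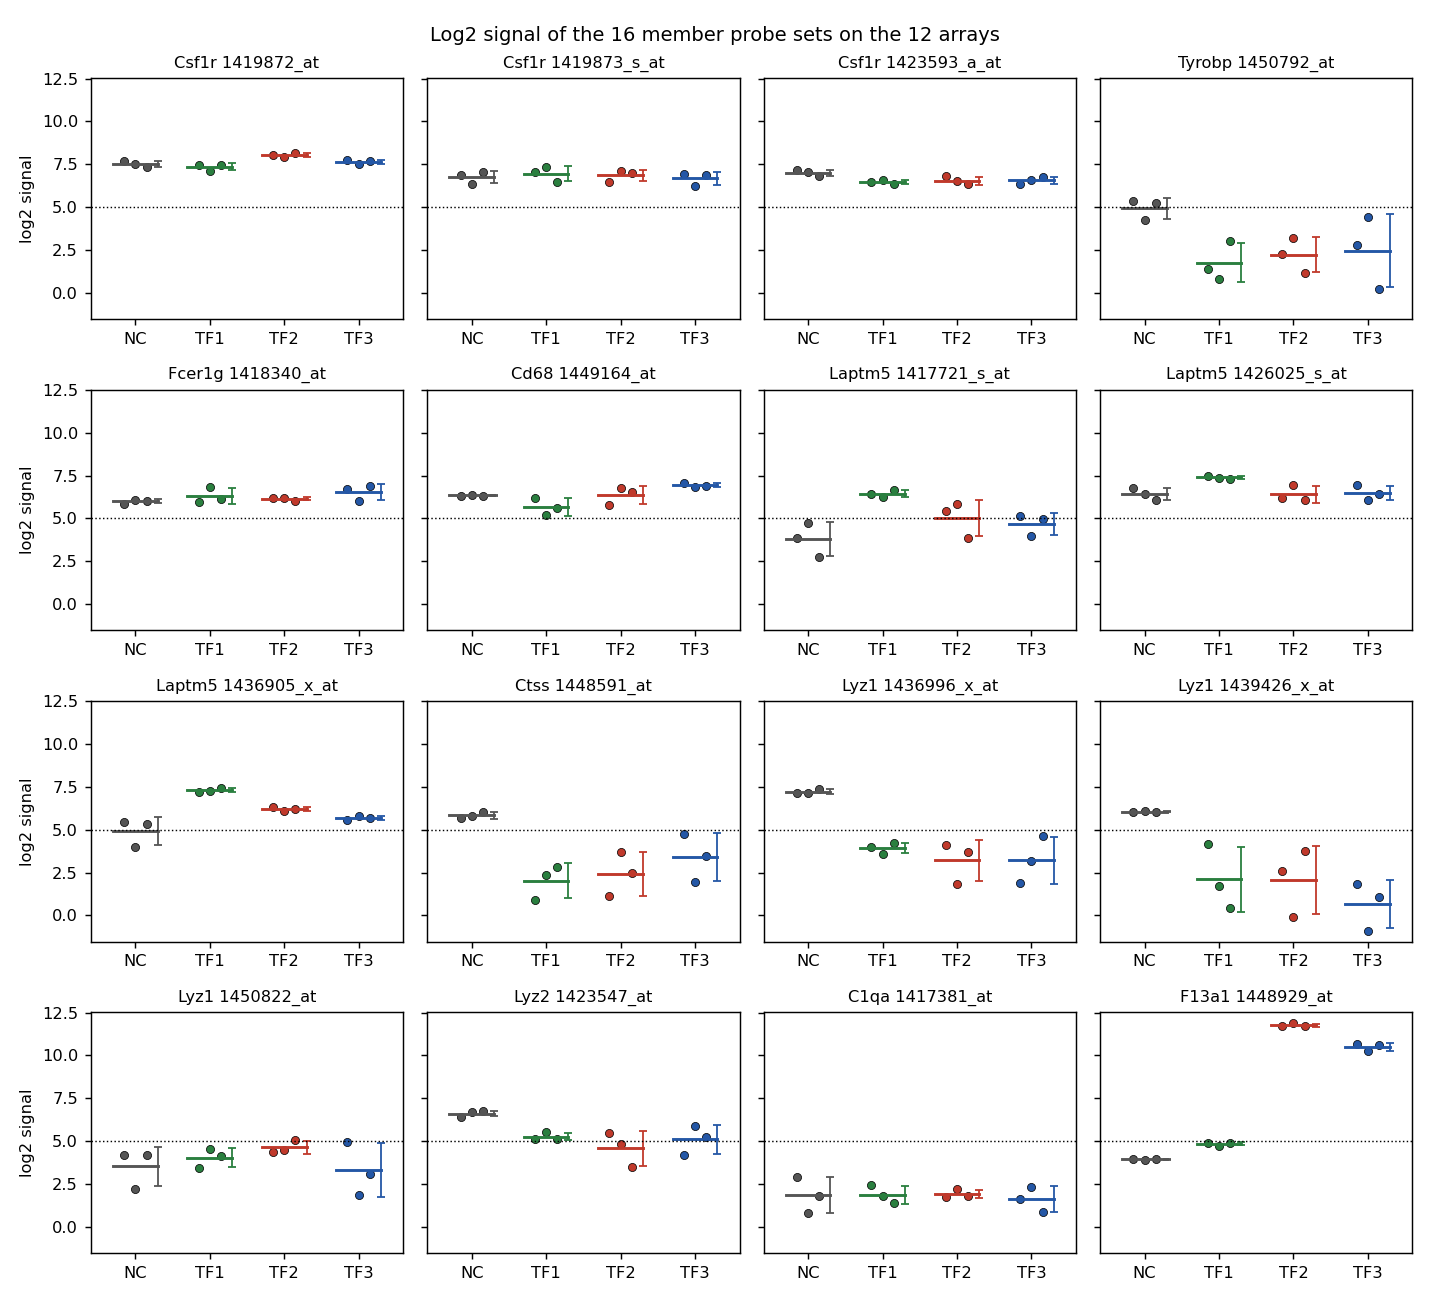
Log2 signal (y axis) of each of the 16 member probe sets in the negative control (NC) and TF groups 1 to 3 (TF1, TF2, TF3), with 1 point per array (n = 3), a line at the group mean and a bar of 1 SD. The dotted line marks log2 5 (signal 32): F13a1 lies at log2 means of 11.77 in TF2 and 10.5 in TF3, and all 12 values of C1qa lie below the line.

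F13a1 lies on mouse chromosome 13 at 36867178 to 37050244 (GRCm38.p6) on the minus strand, and RefSeq gives it more than 1 start. The windows of 300 bases around both starts (250 before to 50 after) are printed because no other member moved so far. Capitals mark matches to GAGGAA, the core of PU.1 sites, and to GATAAG, the site of GATA factors, searched on both strands:
F13a1 outer start, chr13:37050195-37050494, minus strand: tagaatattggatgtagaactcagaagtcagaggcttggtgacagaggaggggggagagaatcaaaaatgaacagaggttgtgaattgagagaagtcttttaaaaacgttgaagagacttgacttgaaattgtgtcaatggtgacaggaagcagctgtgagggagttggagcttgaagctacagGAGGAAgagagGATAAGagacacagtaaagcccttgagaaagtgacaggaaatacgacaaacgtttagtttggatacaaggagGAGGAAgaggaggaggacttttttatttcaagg
F13a1 inner start, chr13:37049164-37049463, minus strand: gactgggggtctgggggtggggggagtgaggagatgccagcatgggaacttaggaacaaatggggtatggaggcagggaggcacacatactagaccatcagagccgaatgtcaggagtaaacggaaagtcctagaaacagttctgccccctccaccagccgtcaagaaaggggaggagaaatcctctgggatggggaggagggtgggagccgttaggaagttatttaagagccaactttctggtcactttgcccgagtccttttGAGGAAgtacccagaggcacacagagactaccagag
The outer window held GAGGAA at 66 bases before the start and at 18 bases into the transcript, and GATAAG at 55 bases before the start. It also held the E-box CAGCTG at 99 bases before the start. The inner window held GAGGAA once, at 15 bases into the transcript, and no GATAAG or CAGCTG. Among all 32851 windows of this length, 28.3% held GAGGAA, 7.44% GATAAG and 16.3% CAGCTG, and neither F13a1 window held the T-box motif GGTGTG (19% of windows), the MEF2 consensus (3.19%) or the CArG box consensus (1.63%). The same E-box also lay in the windows of Fcer1g, Ctss, Laptm5, Lyz2, Lyz1 and Cd68. The PU.1 core also lay in those of Ctss, Laptm5 and Cd68, and the site of GATA factors in that of Lyz1. None of these matches was thus particular to F13a1 among the members with a window. A match describes these letters only, and which start was used was not measured.

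The list of transglutaminase, clotting and fibrinolysis genes gives the setting in which F13a1 moved. Of 30 measured genes, 2 rose and 5 fell in TF group 1, 1 rose and 6 fell in TF group 2, and 4 rose and 4 fell in TF group 3 against the negative control. Leaving out 1 array gave 7 to 10, 7 to 9 and 5 to 8 called genes, and in TF group 3 the calls of Tgm1 and Fga held in 5 of 12 such fits. The median log2 change was -0.23, -0.16 and -0.35, beside 0.07, 0.06 and 0.05 over all 12393 genes. F13b, the carrier subunit that holds F13a1 in plasma, stayed between 3.2 and 28 on all 12 arrays.

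Tgm2, the tissue transglutaminase, fell against the negative control in TF groups 1 and 2. It read 987.4, 1515.2 and 1360.1 in the negative control, 411.8, 576.9 and 575.4 in TF group 1, 448.7, 448.6 and 388.1 in TF group 2, with 929.8, 1008 and 985.9 in TF group 3. The log2 changes were -1.3 and -1.57 with an SE of 0.18 (limma adjusted p = 0.000263 and 7.09e-05). TF group 2, the group with the brightest F13a1, thus had the lowest Tgm2 mean, and TF group 3 was 2.28-fold higher than TF group 2 (limma adjusted p = 0.00339). Of the 5 other Tgm2 probe sets, 3 passed in the same direction in TF groups 1 and 2 and the other two were dimmer and passed in none.

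Among inhibitors and activators around fibrin, calls ran in both directions. Tfpi2, an inhibitor of tissue factor and plasmin, was 11.7-fold lower in TF group 1, 10.3-fold lower in TF group 2 and 8.16-fold lower in TF group 3 (limma adjusted p = 5.45e-06, 6.57e-06 and 1.4e-05). Plaur, the urokinase receptor, was 3.77-fold, 3.71-fold and 2.58-fold lower. F3, tissue factor, passed against the negative control in TF group 2 alone, 2.68-fold lower, and TF group 3 was 2.92-fold higher than TF group 2 (limma adjusted p = 3.08e-05). In TF group 1 it did not pass, but its arrays (1109 to 1218.1) all lay below those of the negative control (1512.2 to 1891.3). F5, clotting factor V, was the gene of this list that rose in each TF group, by log2 1.79, 0.95 and 0.97, while its second probe set passed in none. The protease Plat, which activates plasminogen, rose in TF group 1 by log2 0.91, and the anticoagulant receptors Procr and Thbd rose in TF group 3 by log2 0.92 and 0.6, of which Plat turned to -0.06 and Thbd to -0.24 with scaling to the poly-A spikes.

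Csf1r, the receptor of the growth factor Csf1, showed no shared direction over its 3 probe sets. Probe set 1419872_at read 206.7, 183.3 and 161.8 in the negative control, 174.6, 138.5 and 178.8 in TF group 1, 263.5, 246.7 and 288.8 in TF group 2, with 213.3, 179.9 and 203.5 in TF group 3. TF group 2 was the highest group and did not overlap the others, at 1.45-fold over the negative control (log2 change 0.54, SE 0.13) and 1.63-fold over TF group 1. The difference from TF group 1 passed the thresholds and that from the negative control did not. Probe set 1423593_a_at instead had lower means in all TF groups, with log2 changes of -0.54, -0.45 and -0.45 (SE 0.15). None of these changes passed, and TF group 2 overlapped the negative control. Probe set 1419873_s_at lay between 74.7 and 163 and overlapped in every pair of groups.

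Csf1, a ligand of Csf1r, was bright and fell on its brighter probe sets. The brightest probe set of Csf1, the growth factor on which macrophages depend, read 4460.6, 4069.6 and 4353.5 in the negative control and 2320.5, 2128.3 and 2221.3 in TF group 1. It read 1550.8, 1579.7 and 1650 in TF group 2, with 2395.7, 2190.1 and 2187.6 in TF group 3. It was 1.93-fold, 2.69-fold and 1.9-fold lower, and no TF array reached the negative control (limma adjusted p = 3.32e-06, 2.37e-07 and 3.35e-06). A second probe set fell in the same way, by log2 1.16, 1.77 and 1.11, and the other two, which were dimmer, passed in none. The change of Csf1 in TF group 2 was larger than in TF group 1 by log2 0.48 (limma adjusted p = 0.00232), under the fold of 1.5. Of the 9 measured growth factors and receptors, 0 rose and 1 fell in TF group 1, 1 rose and 2 fell in TF group 2, and 1 rose and 1 fell in TF group 3. Csf1 was the gene called in all 3. The other calls were Csf2ra (higher) and Csf3 (lower) in TF group 2 and Csf2rb (higher) in TF group 3, and they held in 7, 1 and 11 of the 12 fits that left out 1 array, with 1 to 3 genes called in each of these groups. Il34, the other ligand, passed in none.

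The ITAM adaptors, which carry the signal of receptors that have no signalling tail of their own, were dim. Tyrobp (DAP12) read 40.9, 18.9 and 37.5 in the negative control, 2.7, 1.7 and 8 in TF group 1, 4.9, 9.3 and 2.2 in TF group 2, with 6.8, 21.2 and 1.1 in TF group 3. Only 2 of its 12 values were above 32, both in the negative control, and no fold is given since every group mean lay below the floor. The log2 differences were -3.2, -2.72 and -2.49 with an SE of 1.02, and TF group 3 overlapped the negative control. Fcer1g, the adaptor shared by Fc receptors, ran from 57.9 to 68.8 in the negative control, 62.7 to 111.9 in TF group 1, 65.6 to 73.7 in TF group 2 and 63.5 to 118.6 in TF group 3. All 4 groups overlapped. Of 14 measured partners and kinases of these adaptors, 0 passed in TF group 1 (limma, and also 0 at an unadjusted p under 0.05 and with the unmoderated model), 1 rose in TF group 2 and 2 rose in TF group 3, and none fell. Leaving out 1 array gave 0 to 1, 0 to 2 and 0 to 2 called genes of this list in TF groups 1, 2 and 3. Clec4e, a receptor that pairs with Fcer1g, was the gene that rose in both TF groups 2 and 3, at least 1.16-fold and at least 1.2-fold against the floor, and its calls held in 6 and 9 of the 12 fits that left out 1 array.

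**Figure D2:**
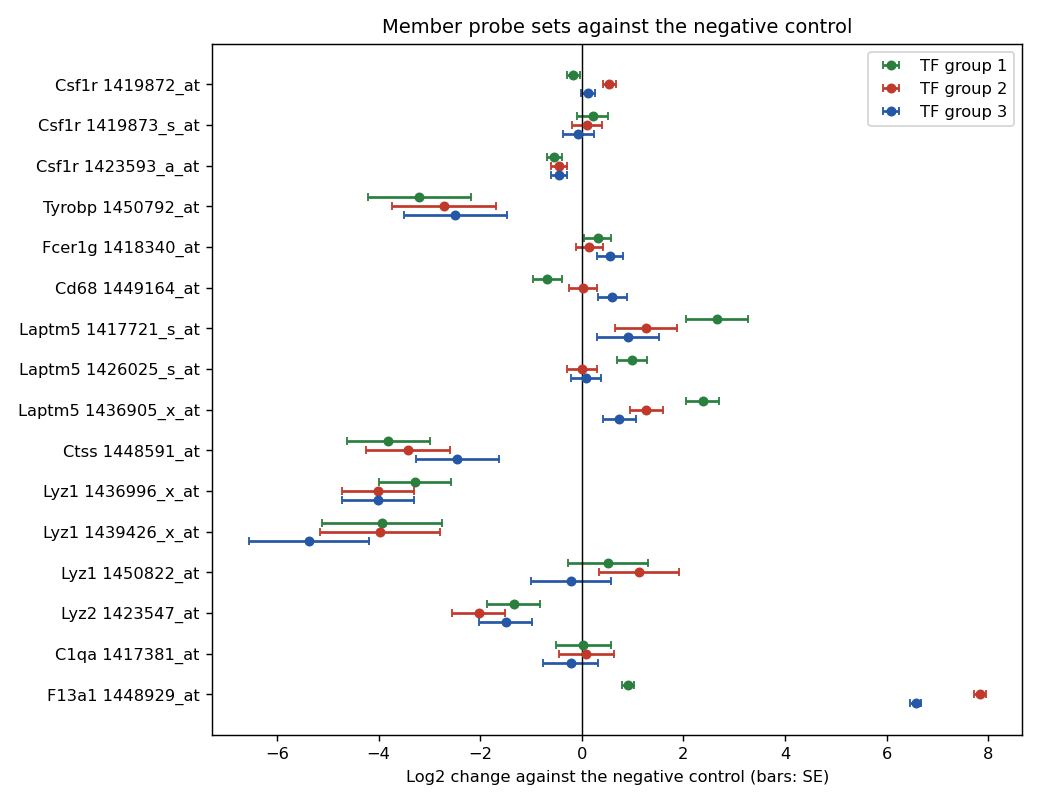
Log2 change (x axis) of each of the 16 member probe sets (rows) in TF groups 1, 2 and 3 against the negative control, with bars of 1 SE from the fit over all 12 arrays. F13a1 stands at 7.84 in TF group 2 and 6.57 in TF group 3, and the SE grows to 1.18 for Lyz1 1439426_x_at, whose TF signals lie below the floor.

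The lysosomal membrane members differed from each other. Cd68, a glycoprotein of macrophage endosomes and lysosomes, read 80.6, 82.2 and 80.2 in the negative control, 72.6, 36 and 49.6 in TF group 1, 55.3, 107.6 and 92.9 in TF group 2, with 135.1, 113.4 and 121.2 in TF group 3. TF group 3 was the highest group and overlapped none, at 1.52-fold over the negative control (log2 change 0.6, SE 0.28), 1.5-fold over TF group 2 and 2.43-fold over TF group 1. TF group 1 lay below the negative control without overlap, with a log2 change of -0.68.

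Laptm5, a lysosomal membrane protein of blood cells, was highest in TF group 1 on all 3 of its probe sets. Probe set 1436905_x_at read 44.5, 15.7 and 40.8 in the negative control, 150.2, 156.2 and 171.7 in TF group 1, 79.2, 67.2 and 75.8 in TF group 2, with 46.8, 55.7 and 51.1 in TF group 3. Its 4 groups did not overlap, and its excess over the negative control was at least 4.11-fold for TF group 1 and at least 1.91-fold for TF group 2, with each negative control array taken at 32 or at its own signal where that was higher. Probe set 1417721_s_at read 14.4, 26.5 and 6.8 in the negative control against 87.6, 75.8 and 101.1 in TF group 1, at least 2.74-fold higher. Probe set 1426025_s_at was 1.98-fold higher in TF group 1 (log2 change 0.99, SE 0.29) and overlapped the negative control in TF groups 2 and 3. The 3 probe sets thus shared the order of TF group 1 over the negative control and differed on TF group 2. An _s_at or _x_at probe set is one that the array's design marks as able to bind more than 1 transcript.

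Ctss, a cysteine protease that trims the invariant chain in antigen-presenting cells, was above the floor in the negative control alone. It read 50.7, 56.1 and 66.4 there, 1.9, 5.1 and 7.1 in TF group 1, 2.2, 12.8 and 5.5 in TF group 2, with 26.7, 3.9 and 11.1 in TF group 3. No TF array reached the negative control, and against the floor Ctss was at least 1.79-fold lower in each TF group. The fitted log2 changes were -3.81, -3.42 and -2.45 with an SE of 0.82.

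Related lysosomal genes were read beside Ctss. Of 15 measured genes (other cathepsins, legumain, the inhibitor cystatin C and the invariant chain Cd74), 9 rose and 1 fell in TF group 1, 8 rose and 0 fell in TF group 2, and 8 rose and 0 fell in TF group 3. The share of all probe sets that were higher and lower was 13.6% and 9.06%, 13.7% and 9.98%, and 13.6% and 9.36% in the same order. The median log2 change of the list was 0.67, 0.61 and 0.59, and that of all genes 0.07, 0.06 and 0.05. Ctsf, a cathepsin found in many tissues, read 46.1, 33.9 and 35.1 in the negative control, 351.9, 347.7 and 378.7 in TF group 1, 644.8, 683.3 and 582.6 in TF group 2, with 417.6, 436.7 and 402.9 in TF group 3. It was 9.46-fold, 16.7-fold and 11-fold higher (limma adjusted p = 9.53e-08, 2.47e-08 and 5.59e-08), and every TF array was above every negative control array. Ctsh was 4.63-fold, 5.21-fold and 3.05-fold higher, and the aspartic protease Ctsd 2.66-fold, 2.49-fold and 2.16-fold higher. The lysosomal protective protein Ctsa rose by log2 1.3, 1.32 and 1.13. Several smaller rises of this list changed sign when arrays were scaled to the poly-A spikes, namely Ctsl, Ctsz, Lgmn and Cst3, and Ctsf, Ctsh, Ctsd and Ctsa did not.

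The lysozymes are a pair of neighbouring genes, of which Lyz2 is the one known from macrophages and Lyz1 the one known from Paneth cells of the gut. On chromosome 10 (GRCm38.p6, minus strand) Lyz2 spans 117277541 to 117282272 and Lyz1 spans 117287795 to 117292868, with 5522 bases between them.

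Lyz2 read 84.8, 103.4 and 106.2 in the negative control, 34.9, 46.3 and 35.1 in TF group 1, 44.2, 28.3 and 11 in TF group 2, with 18.3, 59.3 and 37.9 in TF group 3. All 9 TF arrays were below the 3 negative control arrays. The level was 2.54-fold lower in TF group 1, at least 2.74-fold lower in TF group 2 and 2.83-fold lower in TF group 3, with an SE of 0.52 on the log2 scale.

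Of the 3 probe sets named for Lyz1, the pair marked _x_at had the same direction as Lyz2 and the one with no such mark did not. Probe set 1436996_x_at read 142.4, 140.7 and 169.1 in the negative control and between 3.6 and 24.5 on the 9 TF arrays, at least 4.69-fold lower in each TF group. Probe set 1439426_x_at read 66.9, 67.6 and 64.3 in the negative control and between 0.5 and 18.1 on the TF arrays, at least 2.07-fold lower. Probe set 1450822_at read 18.1, 4.6 and 18.1 in the negative control, 10.7, 23.2 and 17.3 in TF group 1, 20.4, 22.4 and 33.6 in TF group 2, with 31.3, 3.6 and 8.6 in TF group 3. Its one value above 32 lay in TF group 2, so this probe set, which has no cross-binding mark, did not measure Lyz1 above the floor in the negative control. Whether the _x_at signals came from Lyz1 or Lyz2 cannot be told apart.

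C1qa, the A chain of complement C1q, stayed between 1.8 and 7.5 on all 12 arrays, and its log2 changes were 0.03, 0.09 and -0.22 with an SE of 0.54. Its partner C1qb lay between 16.3 and 58.2 and passed in none, and 2 other C1qb probe sets were below the floor. The proteases that assemble with C1q did rise. C1ra read 108.7, 88.1 and 76.1 in the negative control, 473, 476.1 and 502.2 in TF group 1, 282, 268.1 and 267.8 in TF group 2, with 172, 168.2 and 184 in TF group 3. The groups did not overlap, and C1ra was 5.37-fold, 3.03-fold and 1.94-fold higher than the negative control (limma adjusted p = 3.94e-07, 3.45e-06 and 0.000109). Each TF group was lower than the one with fewer factors, TF group 2 by log2 0.83 from TF group 1 and TF group 3 by log2 0.64 from TF group 2 (limma adjusted p = 0.00249 and 0.00802). C1s1 rose 5.4-fold with the factors of TF group 1 and 2.11-fold with those of TF group 2. The membrane regulator Cd55 rose in each TF group, by 3.65-fold, 3.13-fold and 2.42-fold, and Cd59a, which blocks the membrane attack complex, rose in TF group 3 by 3.36-fold. Of 12 measured complement genes, 4, 3 and 3 rose in TF groups 1, 2 and 3 and none fell. The shares among all probe sets were 13.6%, 13.7% and 13.6% higher and 9.06%, 9.98% and 9.36% lower.

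**Figure D3:**
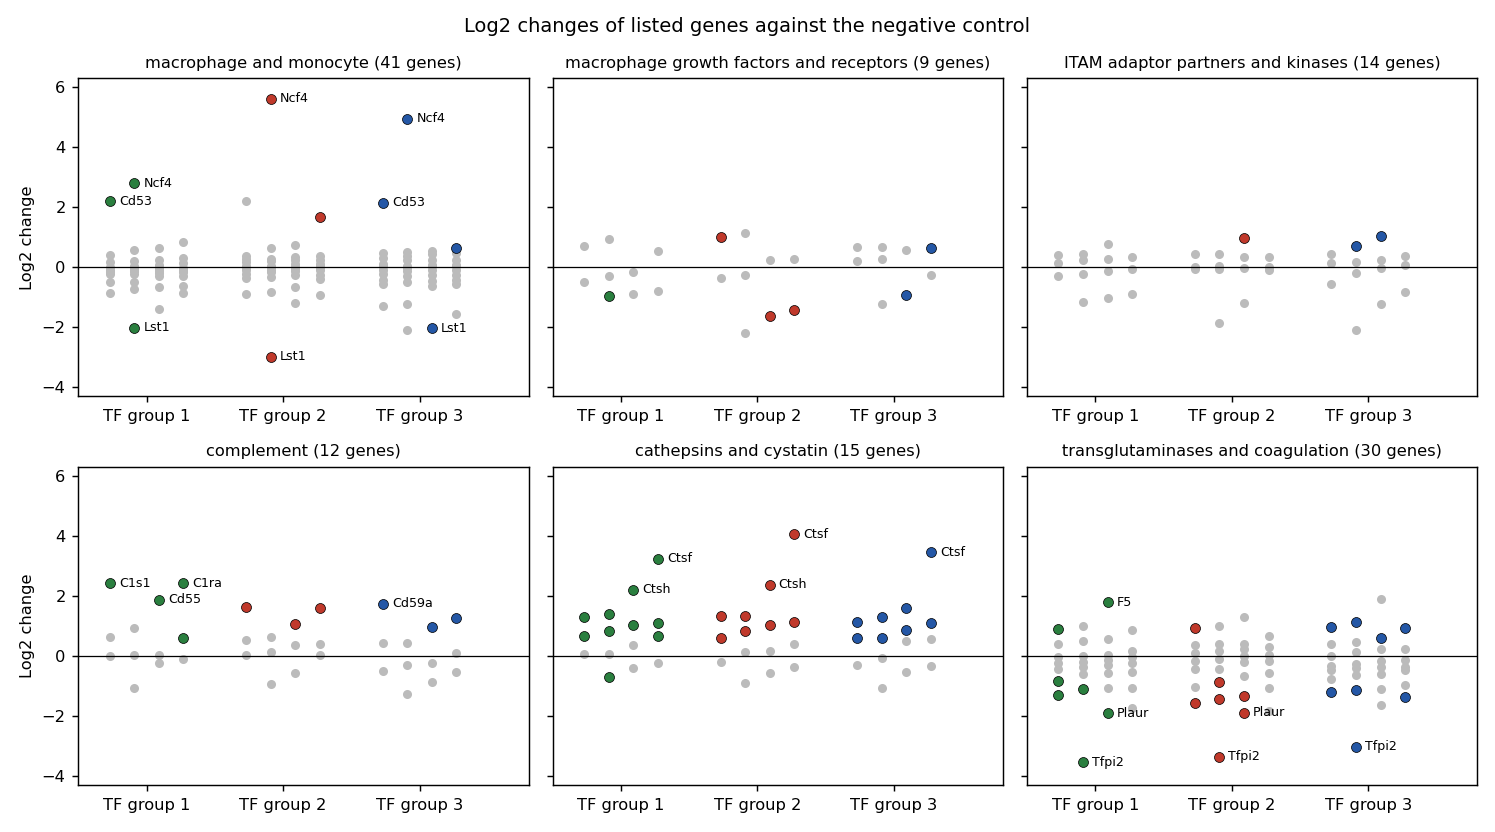
Log2 change against the negative control (y axis) of the measured genes of 6 lists in TF groups 1, 2 and 3 (x axis), with 1 point per gene, coloured where it passed the test (limma adjusted p under 0.05 and fold over 1.5) and grey otherwise, with names at coloured points whose size was over 1.7. Horizontal spread within a group has no meaning. Most macrophage and monocyte genes lie near 0, Ncf4 stands at 5.62 in TF group 2, and 8 of 15 cathepsin list genes rose there.

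Counted over the 16 member probe sets, the calls of the fit across all probe sets (adjusted p under 0.05 and fold over 1.5) are given beside the share called among all 22626, and nothing is read from them because the members were chosen with these results known. In TF group 1 against the negative control, 4 members were higher beside 13.6% of all probe sets, and 4 were lower beside 9.06%. In TF group 2, 2 were higher beside 13.7% and 4 lower beside 9.98%. In TF group 3, 1 was higher beside 13.6% and 4 lower beside 9.36%. The median log2 change of the members was -0.07, 0.05 and -0.14, and that of all probe sets was 0.06, 0.05 and 0.05.

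Between TF groups fewer members were called. In TF group 2 against TF group 1, 2 were higher (F13a1 and Csf1r 1419872_at) beside 1.7% of all probe sets, and 0 lower beside 1.57%. In TF group 3 against TF group 2, 0 were higher beside 2.18% and 1 lower (F13a1) beside 1.39%. In TF group 3 against TF group 1, 2 were higher (F13a1 and Cd68) beside 3.04%, and 1 lower (Laptm5 1436905_x_at) beside 2.62%. Comparisons that share a group are not independent of each other.

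The calls of F13a1, Lyz1 1436996_x_at and Laptm5 1436905_x_at against the negative control held in all 12 fits that left out 1 array. So did those of Laptm5 1417721_s_at in TF group 1 and of Ctss in TF groups 1 and 2. The same was true of Lyz2 in TF group 2 and Lyz1 1439426_x_at in TF group 3. The other calls were lost in some of these fits. In TF group 3, the call of Lyz2 held in 3 of 12 fits and that of Ctss in 5 of 12. In TF group 1, the call of Tyrobp held in 8 of 12 fits, that of Laptm5 1426025_s_at in 8 and that of Lyz1 1439426_x_at in 7. In TF group 2, the call of Lyz1 1439426_x_at held in 8.

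The signals of the 9 macrophage member genes were also summed by array. With 1 probe set per gene, the one with the highest mean, the 9 genes summed to 740 to 780 in the negative control, 522 to 552 in TF group 1, 537 to 612 in TF group 2 and 524 to 637 in TF group 3. The negative control overlapped none of the TF groups, and the TF groups overlapped each other. Lyz1 and Lyz2 together gave 227 to 275 in the negative control and at most 58, 61 and 68 in TF groups 1, 2 and 3. The Lyz1 value here was that of 1436996_x_at, whose signal cannot be told apart between Lyz1 and Lyz2. One transcript may thus enter the sum under both names. Without this pair, a sum chosen after seeing the data, the other 7 genes gave 481 to 553, 463 to 501, 476 to 580 and 456 to 615. Every TF group then overlapped the negative control, but falls and rises partly cancelled within this sum. From the negative control to TF group 1, mean signals fell from 57.7 to 4.69 for Ctss, 32.4 to 4.14 for Tyrobp and 81 to 52.7 for Cd68. That of Laptm5 1426025_s_at rose from 86.8 to 168.9. Of the 9 genes, 1 was below 32 on all 3 arrays of the negative control and 4 were so in each TF group.

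The wider macrophage and monocyte list had its lowest sum in the negative control, through Ncf4 and Cd53. Its 41 measured genes summed to 1505 to 1696 in the negative control, 1738 to 1831 in TF group 1, 2298 to 2489 in TF group 2 and 2067 to 2388 in TF group 3. Without Ncf4 and Cd53, again chosen after seeing the data, the other 39 genes gave 1447 to 1580, 1342 to 1449, 1414 to 1569 and 1412 to 1641, and each TF group overlapped the negative control. Against the negative control 2 genes rose and 1 fell in TF group 1, 2 rose and 1 fell in TF group 2, and 3 rose and 1 fell in TF group 3, and 37 or 38 passed in neither direction. The median log2 change was -0.1, 0 and -0.03.

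**Figure D4:**
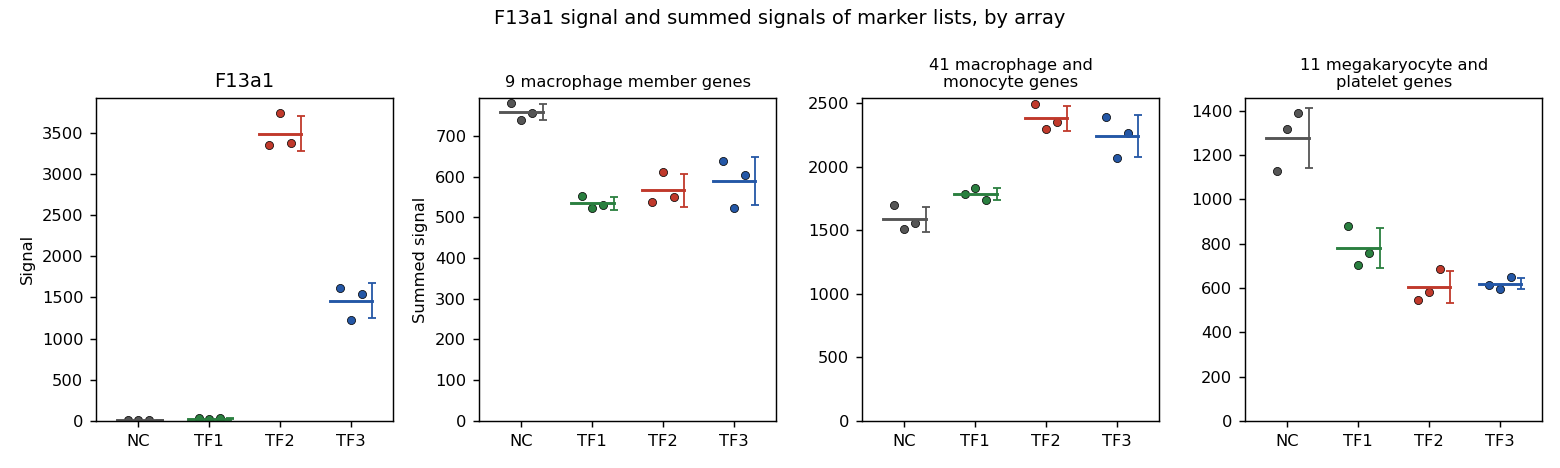
Signal of F13a1 (left) and summed signals of the 9 macrophage member genes, 41 macrophage and monocyte genes and 11 megakaryocyte and platelet genes (y axes, linear and starting at 0) in the negative control (NC) and TF groups 1 to 3 (TF1, TF2, TF3), with 1 point per array, a line at the mean and a bar of 1 SD (n = 3). The 9 genes sum to 740 to 780 in NC and to at most 637 in any TF group. Without the probe sets read for Lyz1 and Lyz2, which may share a transcript, the sum of the other genes overlaps NC in every TF group. F13a1 is bright in TF2 and TF3 alone.

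Ncf4, a subunit of the phagocyte NADPH oxidase, had its group means in the same order as F13a1, with TF group 2 over TF group 3 over TF group 1 over the negative control. It read 43.5, 8.3 and 8.3 in the negative control, 96.5, 99.2 and 108.7 in TF group 1, 699.2, 695.8 and 732 in TF group 2, with 454.9, 417.1 and 478.6 in TF group 3. The first negative control array stood apart from the other two, and no TF array overlapped it. Taken from the floor, or from its own signal on the array above it, Ncf4 was at least 2.86-fold, 20-fold and 12.7-fold higher than the negative control (limma adjusted p = 0.00206, 2.26e-05 and 5.53e-05). TF group 2 was 7-fold over TF group 1 (limma adjusted p = 0.0128), and TF group 3 did not pass against TF group 2 (log2 change -0.66, SE 0.53).

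Cd53, a tetraspanin of blood cells, rose in all TF groups, from 49.8 to 73 in the negative control to 279.2 to 286.4 in TF group 1, 165.9 to 220.4 in TF group 2 and 238.7 to 295.9 in TF group 3. The fold was 4.61, 3.18 and 4.47 (limma adjusted p = 3.82e-06, 2.01e-05 and 3.87e-06). Lst1, a leukocyte gene, fell from 35.1 to 50.4 in the negative control to between 3.3 and 25.5 on the TF arrays, at least 1.24-fold lower. The calls of Ncf4 and Cd53 against the negative control held in all 12 fits that left out 1 array, and that of Lst1 in TF groups 1 and 3 held in 7. Between TF groups, the call of Ncf4 held in all 12 in TF group 2 against 1 and in 6 in TF group 3 against 1.

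Markers of the other cell types in which F13a1 is known were measured beside it. Of 11 megakaryocyte and platelet genes, 1 rose and 1 fell in TF group 1, 0 rose and 1 fell in TF group 2, and 2 rose and 1 fell in TF group 3. The genes that rose were Gp1bb in TF group 1 and Treml1 and Rgs18 in TF group 3, whose calls held in 7, 8 and 8 of the 12 fits that left out 1 array, and these fits called 1 to 3 genes in either group and 1 to 2 in TF group 2. Gp1bb turned to -0.27 with scaling to the poly-A spikes. The gene that fell was Ppbp, a platelet chemokine, which was 3.98-fold, 8.45-fold and 10.7-fold lower (limma adjusted p = 0.000137, 7.07e-06 and 3.75e-06). The summed signal of the list ran from 1128 to 1391 in the negative control, 703 to 879 in TF group 1, 544 to 684 in TF group 2 and 597 to 649 in TF group 3. Ppbp carried this order, since without it (chosen after seeing the data) the other 10 genes gave 415 to 439, 517 to 610, 427 to 567 and 496 to 581, with the lowest mean in the negative control, which overlapped TF group 2. Pf4, the defining platelet factor, ranged from 44.7 to 84.2 and passed in none.

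Of 17 genes of alternatively activated macrophages, 1 rose in each TF group and 2, 1 and 1 fell. The gene that rose was Ccl17, a chemokine, from 64.1 to 74.3 in the negative control to 1172.8 to 1302.9 in TF group 3, 17.7-fold (limma adjusted p = 8.67e-09), and 3.06-fold and 3.2-fold in TF groups 1 and 2. Its largest change thus lay in TF group 3, where F13a1 was lower than in TF group 2. Il4ra, the receptor chain for the cytokine that drives this state, fell 1.89-fold, 2.15-fold and 2.41-fold, as did a second probe set, while the remaining probe set passed in TF group 2 alone. Among 12 lymphocyte genes Blnk, an adaptor of B cell receptor signalling, was the one that passed, 6.27-fold higher with TF group 2, and 4.01-fold with TF group 3 (limma adjusted p = 1.33e-06 and 8.92e-06). Of 9 mast cell genes 1 rose in each TF group, the protease Mcpt4 in TF groups 1 and 3 and the carboxypeptidase Cpa3 in TF group 2. The call of Mcpt4 in TF group 1 held in 3 of the 12 fits that left out 1 array, that of Cpa3 in 5 and that of Mcpt4 in TF group 3 in 12, and with scaling to the poly-A spikes Mcpt4 in TF group 1 turned to -0.02 and Cpa3 to -0.17. Of 11 neutrophil genes 0 passed in any TF group (limma, and also 0 at an unadjusted p under 0.05 and with the unmoderated model). Leaving out 1 array gave 0 to 1 called neutrophil genes in TF group 1 and 0 in TF groups 2 and 3. The part of other cells in the F13a1 signal was not tested.

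Across all 12 arrays, the 5 patterns nearest to F13a1 belonged to none of the blood cell lists used here. Likeness was measured as the root mean square difference of log2 signals after each probe set's own mean was taken off. The search covered 15869 probe sets with 1 gene symbol and a mean log2 signal of at least 5, with the members left out. Size of change counts in this measure, so genes such as Ncf4, with the group order of F13a1 but a smaller change, lie further off. Nothing is read from it on cell types. The nearest 5 were Myl1 (0.66), a myosin light chain of skeletal muscle, the carbonic anhydrase Car2 (0.81), the neuropeptide gene Grp (0.91), Tagln3 (1.38), a neuronal relative of transgelin, and Car3 (1.42), another carbonic anhydrase.

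Myl1 read from 19.1 to 40.4 in the negative control, 21 to 41.9 in TF group 1, 8267.8 to 8705.3 in TF group 2 and 3743.1 to 4098.5 in TF group 3. It shared with F13a1 the order of TF group 2 over TF group 3 and the low level in the other two groups. Car2 and Car3 differed in that their TF group 3 arrays were higher than their TF group 2 arrays, at 2499.1 to 2835.6 against 2207.1 to 2271.7 for Car2. Grp fell further from TF group 2 to TF group 3, from 4916.3 to 5192.7 down to 438.5 to 533.2. For Tyrobp the nearest were Mmp3 (1.05), Rad51ap1 (1.06), Avpr1a (1.06), Coch (1.07) and Shmt2 (1.08), distances about the size of the SE of Tyrobp itself, 1.02, so this order is weak.

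**Figure D5:**
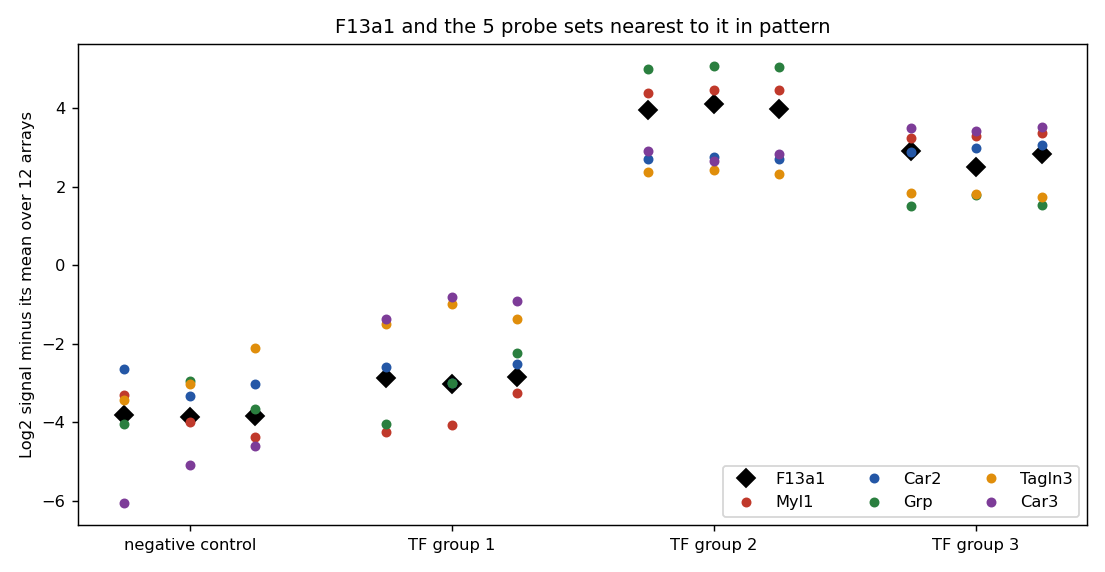
Log2 signal minus the probe set's mean over the 12 arrays (y axis) for F13a1 (black diamonds) and the 5 probe sets nearest to it in pattern (coloured points), with 1 point per array, grouped by negative control and TF groups 1 to 3 (x axis). Points of F13a1 and Myl1 lie high in TF groups 2 and 3 and low in the other two groups, and the root mean square difference between them is 0.66.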

How the data were processed

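RNA of 12 MEF cultures was hybridised to Affymetrix Mouse 430A 2.0 arrays. The deposited intensity values are on a linear scale with a 2% trimmed mean of 500 on every array. The labels name Partek and RMA, which yields log2 values, so the step that made the deposited values is not given in the sources used here. Probe sets were named through the platform annotation (20380 with 1 symbol, 691 with several, 1555 with none), of which the entrez identifiers of 20351 matched RefSeq. Log2 values were fitted over all 12 arrays with 1 mean per group (limma 3.58.1, R 4.3.3), and p-values were adjusted by Benjamini-Hochberg over 22626 probe sets. A call needed an adjusted p under 0.05 and a fold over 1.5. Folds against a group with a mean below 32 are lower bounds, with each of its arrays at 32 or its own higher signal. Listed genes were read from their brightest probe set. Genes were named by rule: all members, up to 4 called genes per list and direction, defining markers, and the 5 nearest patterns to F13a1 and Tyrobp. The fit was tested on simulated data. The members and lists were chosen with earlier results of these data known. Median signals were 131.4 to 149.3, between 20.4% and 24.2% of probe sets lay below 32, and replicates correlated at 0.96 to 0.966. The number of arrays limits the precision, and p-values set group differences against the spread between these replicate cultures. Whether the replicates came from separate MEF preparations is not stated in the sources used here. Alternatives covered scaling, offset, filter, variance model, threshold, samples, replicate block and leaving out each array. Promoter windows came from RefSeq (GRCm38.p6) for 7 of 10 members. Deviations from the group means gave no sign that replicate numbers pair the arrays, but cannot exclude it.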

Additional observations from a re-analysis of the deposited data

How the results depend on the processing

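Of the 2166 log2 changes of member probe sets recomputed under other settings, 2098 moved by less than 1 replicate SD and 67 by more. F13a1 in TF group 1 was the one call that turned, to -0.05 under poly-A spike scaling. Of 3758 log2 changes of called list genes, 3374 kept their direction and call, 369 kept the direction alone and 15 turned. Spike scaling moved the median over all probe sets (log2 change) to -0.91, -0.77 and -0.79 in TF groups 1, 2 and 3 against the negative control, and the share of calls that were higher was 3.65%, 6.25% and 5.38%, beside 60.1%, 57.9% and 59.2% as reported and 45.7%, 47.6% and 46.7% with arrays centred on their medians. Listed genes that turned under it were, in TF group 1, Serping1 (-0.35), Ctsl (-0.29), Ctsz (-0.13), Cst3 (-0.31), Plat (-0.06), Gp1bb (-0.27) and Mcpt4 (-0.02), in TF group 2, Ctsl (-0.21), Cpa3 (-0.17) and Dcn (-0.04), and in TF group 3, Csf2rb (-0.18), Plcg2 (-0.13), Ctsz (-0.23), Lgmn (-0.24) and Thbd (-0.24).

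Counts of called member probe sets against the negative control were 8, 6 and 5. With probe sets of mean log2 of at least 5 they were 4, 3 and 2, since fewer members were tested. In TF group 3 the count was 10 with spike scaling and 3 with array weights, with the unmoderated model and with the replicate block. For TF group 2 against TF group 1 (2 as reported) it was 1 with spike scaling, 4 with an offset of 50, 4 with an intensity trend and 6 with unadjusted p, and for TF group 3 against TF group 1 (3 as reported) it was 5 with each of the last 3 settings.

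Over all probe sets, 5137, 5369 and 5195 were called against the negative control, and 739, 809 and 1279 in TF group 2 against 1, 3 against 2 and 3 against 1. Spike scaling gave 13615, 11707, 11877, 226, 193 and 438, and unadjusted p gave 1478, 1513 and 2007 between TF groups. Of the macrophage and monocyte list, 3, 3 and 4 genes were called against the negative control and 2, 0 and 2 between TF groups in the same order. Spike scaling gave 28, 16 and 18 against the negative control and 1 in TF group 2 against 1, and the mean of all probe sets of a gene gave 5 in TF group 1. An offset of 50 gave 2 in TF group 3, 1 in TF group 3 against 2 and 1 in TF group 3 against 1. In TF group 2 against 1 the dim filter, the unmoderated model, the replicate block and a fit of only the 2 groups each gave 1. In TF group 3 against 2 the trend gave 1, the fit of only the 2 groups 1 and unadjusted p 2, and unadjusted p gave 5 in TF group 3 against 1.

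Leaving out each array in turn gave 6 to 10, 5 to 7 and 3 to 6 called members against the negative control and 2 to 3, 1 to 1 and 3 to 4 between TF groups. The count of 3 in TF group 3 came without negative control replicate 2 or 3, TF group 1 replicate 2 or TF group 3 replicate 3. Over all probe sets it gave 4902 to 5137, 5178 to 5370, 4897 to 5195, 588 to 755, 685 to 849 and 1124 to 1304. For the macrophage and monocyte list it gave 2 to 3, 3 to 4 and 3 to 4 against the negative control and 1 to 2, 0 to 1 and 0 to 3 between TF groups, with 0 in TF group 3 against 1 without TF group 3 replicate 1. Where no cause is named, the cause was not tested.

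Arrays of the same replicate number did not deviate together over all probe sets (correlations of -0.02 to 0.05). Noise of dim probe sets weighs heavily in this value, so it cannot exclude a batch shared by replicate number. Beyond the values above, the replicate block moved no count given here by over 1.5 times. Precision was set by the signal over the floor: the median replicate SD was 0.9 on the log2 scale below log2 5 and 0.063 above log2 11.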
